A study of Mus musculus with 3 samples.

Results

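Brush border peptidases are enzymes anchored in the microvillar membrane of absorptive epithelia, and 8 of them that are known from the proximal tubule of the kidney are described here: Mep1a, Mep1b, Mme, Anpep, Dpp4, Ggt1, Dpep1 and Xpnpep2. The rule that chose them used that role, but it was set with earlier results of these data known. The array annotation gave 7 of the 8 a probeset of their own, out of 19938 genes measured, and each of the 7 had 1 probeset. For Ggt1 it listed none, and the probeset that a supplementary list of the study pairs with Ggt1 is given separately and is left out of the counts.

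The samples were GFP-positive cells sorted from the renal cortex of adult Tie2-GFP mice (allele Tg(TIE2GFP)287Sato, mixed background mainly CD-1, Theiler stage TS28, sex given as unknown), in which the Tie2 promoter drives GFP in endothelium. There were 3 samples, replicates 1 to 3, and each came from 1 kidney whose medulla had been cut away and whose glomeruli had been held back on a mesh. The samples formed 1 group with no control, treatment or second tissue, so a level could be set only against a fixed limit and against the other genes of the same arrays. RNA was amplified in 1 round and hybridised to Affymetrix Mouse Gene 1.0 ST arrays, and levels are log2 signals per probeset.

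In the kidney, filtered peptides and small proteins reach the lumen of the proximal tubule, where membrane peptidases cut them into short peptides and amino acids that carriers of the same membrane take up. Meprins open larger peptides from within, neprilysin cleaves many peptide hormones, aminopeptidases and dipeptidyl peptidases shorten peptides from the amino end, and gamma-glutamyltransferase with membrane dipeptidase takes glutathione apart into its amino acids. Several of these enzymes are not restricted to tubules: Anpep (CD13), Mme (CD10) and Dpp4 (CD26) are also surface proteins of blood, stromal or endothelial cells in some tissues.

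The 3 arrays had median log2 signals of 5.70, 5.70 and 5.66 and correlated across probesets with Pearson r between 0.941 and 0.95, a description in which probesets are not independent replicates. The endothelial label fitted its markers, since 18 of 18 were above a signal of 100. Of 27 measured proximal tubule markers, 22 were above 100 and 0 below, with summed signals of 27700, 23100 and 25900 in replicates 1, 2 and 3, a sum that Kap and Keg1 (mean log2 signals of 12.86 and 11.52) raised. The endothelial markers summed to 16800, 17200 and 14600, sums that Emcn raised (3010, 3990 and 2310), most in replicate 2. The median signal was 440 over the proximal tubule markers and 598 over the endothelial markers, and as these are different probesets neither figure gives a share of cells or RNA. Lrp2, Slc34a1 and Slc27a2, a receptor and carriers of the proximal tubule, had mean log2 signals of 9.39, 9.53 and 11.23. Lymphocyte markers (0 of 8 above, 8 below) and myeloid markers (0 of 12 above, 10 below) were low, where 22.9% of all genes were above and 65.0% below. Of the thick ascending limb, distal tubule and collecting duct, and smooth muscle and pericyte markers, 3 of 6, 3 of 11 and 3 of 10 were above. The highest mean log2 signals of these lists were those of Umod (10.75), Calb1 (9.36) and Rgs5 (9.99). The part of RNA from the proximal tubule or from these other cell types in the levels given below was not tested. In such bulk samples fewer cells of a type and less RNA per cell cannot be told apart. Of the 35557 probesets, 40.5% had the same value, to all 5 decimals deposited, in the 3 samples, and between 50.8% and 53.3% of the probesets of a sample shared their value with another probeset of that sample.

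Of the 7 brush border peptidases, 3 were called above a signal of 100, a log2 signal of 6.64. These were Mep1a, Anpep and Dpep1, called by limma's one-sample test where p, adjusted by Benjamini-Hochberg across the array, was under 0.05. The number 100 comes from the study's methods, which filter out probesets whose raw level does not reach it in 3 samples. Here it was set against the mean of deposited, normalized signals, which is not the same measure. Over all 19938 genes 22.9% were called above 100. Another 3 members, Mep1b, Dpp4 and Xpnpep2, were called below 100, as were 65.0% of all genes, and Mme was called neither. With 7 members, 42.9% stood on each side, and the median of their signals was 122, against 59.0 over all genes. These shares are a description, and no test of the list was run.

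**Figure D1:**
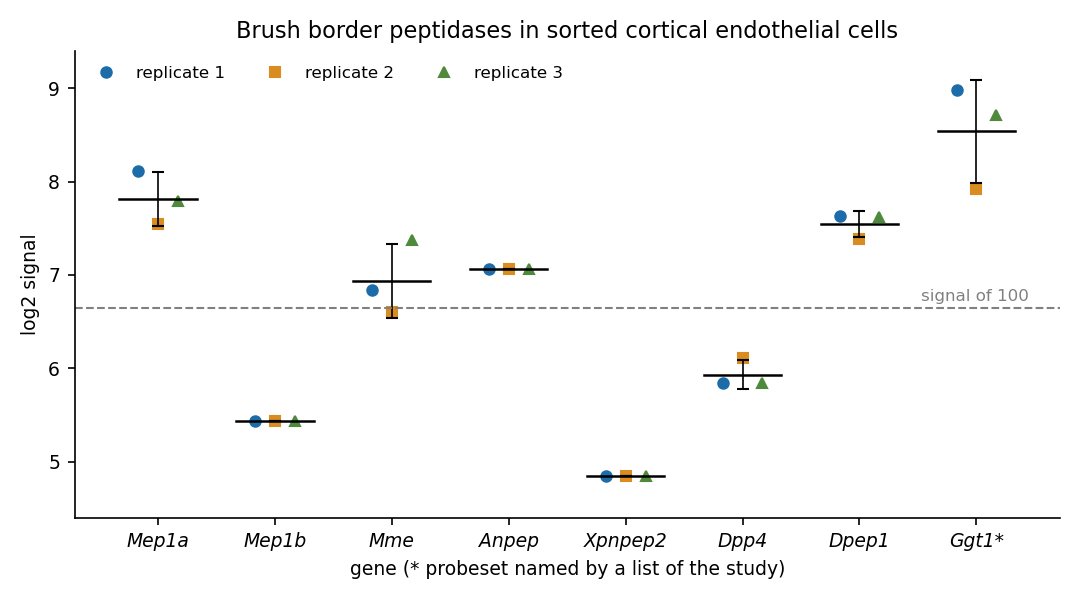
Log2 signal of each brush border peptidase in the 3 samples (points: circles replicate 1, squares replicate 2, triangles replicate 3; bar and whiskers: mean and SD, n = 3), with the signal of 100 as a dashed line. Mep1a, Anpep, Dpep1 and the probeset assigned to Ggt1 lie above the line in every sample, Mep1b, Dpp4 and Xpnpep2 lie below it in every sample, and Mme has replicate 2 just below and the other 2 above.

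The promoter windows of the 3 members called above 100 are shown, with that of Xpnpep2, a member called below 100 whose window has no CpG. Whether base composition is linked to the calls was not tested. Each window runs from 250 bases before to 50 bases after a RefSeq start, on GRCm38.p6 and 5′ to 3′ on the strand of the gene, with every CpG in capitals.
Mep1a (chr17:43502724-43503023, minus strand): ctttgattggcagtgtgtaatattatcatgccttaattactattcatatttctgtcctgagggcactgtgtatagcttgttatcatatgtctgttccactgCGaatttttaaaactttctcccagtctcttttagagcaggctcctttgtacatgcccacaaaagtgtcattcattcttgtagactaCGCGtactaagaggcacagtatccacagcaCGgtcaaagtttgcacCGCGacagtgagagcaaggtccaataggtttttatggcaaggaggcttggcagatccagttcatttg
Dpep1 (chr8:123185985-123186284, plus strand): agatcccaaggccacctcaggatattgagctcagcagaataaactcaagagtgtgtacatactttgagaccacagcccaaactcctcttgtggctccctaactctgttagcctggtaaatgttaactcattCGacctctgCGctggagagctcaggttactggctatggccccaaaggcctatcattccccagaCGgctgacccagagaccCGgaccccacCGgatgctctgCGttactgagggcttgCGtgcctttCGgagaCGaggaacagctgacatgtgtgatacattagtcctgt
Anpep (chr7:79848161-79848460, minus strand): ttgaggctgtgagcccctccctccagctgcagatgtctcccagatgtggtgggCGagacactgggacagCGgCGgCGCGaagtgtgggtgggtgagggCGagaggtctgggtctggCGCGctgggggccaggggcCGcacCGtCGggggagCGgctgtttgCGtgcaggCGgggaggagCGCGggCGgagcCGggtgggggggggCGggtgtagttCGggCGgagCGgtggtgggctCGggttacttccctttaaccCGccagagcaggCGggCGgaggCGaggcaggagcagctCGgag
Xpnpep2 (chrX:48108475-48108774, plus strand): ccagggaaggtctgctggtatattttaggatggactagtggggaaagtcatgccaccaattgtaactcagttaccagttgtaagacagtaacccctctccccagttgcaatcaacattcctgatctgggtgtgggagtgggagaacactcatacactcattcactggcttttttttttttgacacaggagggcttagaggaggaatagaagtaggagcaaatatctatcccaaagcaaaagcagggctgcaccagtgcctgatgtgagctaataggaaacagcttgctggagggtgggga
The Anpep window held 28 CpG and was 72.3% G or C, and 85.8% of all 32851 windows held fewer CpG. The windows of Mep1a and Dpep1 held 6 and 9 CpG, on either side of the median of 7 over all windows. The window of Xpnpep2 held 0 CpG, as did 5.43% of all windows. Among the windows not shown, that of Dpp4, also called below 100, held 4 CpG and was 45.3% G or C. The Mep1a window, of a member called above, was 42.3% G or C. The windows of Mme, called neither, held 4, 32 and 29 CpG.

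Over the 12 windows of the 7 members matched by symbol in the RefSeq table, the matches to 2 motifs on both strands are given. These 7 differ from the 7 with an annotated probeset, since Ggt1 is among them and Mep1b, for which no window was matched, is not. The GC box GGGCGG, which contains a CpG and so overlaps the bases in capitals, was found in 6 windows of 3 members (Mme, Anpep and Ggt1), and in 35.7% of all windows. The Anpep window held 4 of them, which began 68, 48 and 33 bases before the start and 20 bases after it. TATAAA was found in 2 windows, 1 each of Dpp4 and Ggt1, and in 13.6% of all windows. A match is a run of letters only, and nothing about a factor follows from its presence or absence here.

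The meprins, metalloproteinases of the astacin family, were split. For Mep1a, the alpha subunit, the log2 signals in replicates 1, 2 and 3 were 8.11, 7.54 and 7.79, or signals of 277, 186 and 221. All 3 samples were above 100, replicate 1 was the highest, and the highest signal was 1.49 times the lowest. Its mean of 7.81 ± 0.29 (SD, n = 3) was 2.25 times the limit and was called above it by limma (adjusted p = 0.0298). The call was lost when any 1 of the samples was left out, with adjusted p of 0.112, 0.113 and 0.294 without replicate 1, 2 and 3 in limma's fit.

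Mep1b, the beta subunit, which anchors the alpha subunit in the membrane, had 5.44 in each of the 3 samples, a signal of 43.4. The 3 values were equal to all decimals, and 4, 4 and 2 probesets of replicates 1, 2 and 3 carried that number. It was called below 100 (limma adjusted p = 9.12e-10), a p that rests on a spread of 0 between the samples. Thus only 1 of the 2 subunits was called above the limit; the 2 probesets were not compared with each other.

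Mme, neprilysin, a zinc metallopeptidase that cleaves natriuretic peptides, kinins and endothelin, had log2 signals of 6.83, 6.60 and 7.37. Replicate 3 was the highest, at a signal of 166, and replicate 2 was just under the limit, at 97.1. The mean of 6.94 ± 0.40 (SD, n = 3) was 1.22 times the limit and was not called on either side (limma adjusted p for a higher mean 0.552). Its range of 0.77 on the log2 scale was the widest of the 7 annotated members, beside a median range of 0.34 over the 4443 genes with unequal values and a mean of 100 or more.

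Anpep, aminopeptidase N, which removes neutral amino acids from the amino end, had 7.06 in each of the 3 samples, a signal of 134. It was called above 100 at 1.34 times the limit (limma adjusted p = 2.54e-06). As for Mep1b, the values were equal to all decimals, and 3, 4 and 2 probesets carried that number. When a limma fit took the spread of equal-valued probesets from the unequal ones, it gave Anpep an adjusted p of 0.0632, and the call was lost.

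Xpnpep2, the membrane-bound X-prolyl aminopeptidase, which removes an amino acid that stands before a proline, had 4.85 in each of the 3 samples, a signal of 28.8. The limit was 3.47 times that level, and the call below 100 had a limma adjusted p of 3.54e-10. Its value was equal in the 3 samples, and 7, 9 and 7 probesets of replicates 1, 2 and 3 carried it.

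Dpp4, which removes dipeptides that end in proline or alanine and inactivates incretins, had log2 signals of 5.84, 6.11 and 5.84. Replicate 2 was the highest, with a signal of 69.2, and replicates 1 and 3 were equal at 57.4. That equal value was also common in the table: 91 probesets carried it in replicate 1 and 102 in replicate 3, whereas the value of replicate 2 was its own. The mean of 5.93 ± 0.16 (SD, n = 3) was called below 100 (limma adjusted p = 0.0077). Without replicate 1 or without replicate 3 the adjusted p in limma was 0.0632 and 0.0922, and the call was lost.

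Dpep1, the membrane dipeptidase, which splits cysteinylglycine and other dipeptides, had log2 signals of 7.64, 7.38 and 7.62, or 199, 167 and 196. The samples lay close together, with replicate 2 the lowest, and the highest signal was 1.19 times the lowest. The mean of 7.55 ± 0.14 (SD, n = 3) was 1.87 times the limit and was called above it (limma adjusted p = 0.0125). Its SD was below the median of 0.19 over genes with unequal values and a mean of 100 or more. The adjusted p in limma was 0.126 without replicate 1 and 0.193 without replicate 3, so that the call was lost in both.

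The probeset assigned to Ggt1, the enzyme that removes the gamma-glutamyl group of glutathione, had log2 signals of 8.98, 7.92 and 8.72. These are signals of 504, 243 and 421, so that replicate 2 was the lowest by a wide margin and the highest was 2.08 times the lowest. The mean of 8.54 ± 0.55 (SD, n = 3) was 3.72 times the limit and was above it with a limma adjusted p of 0.0414. That call was lost when any 1 sample was left out (limma adjusted p of 0.219, 0.0541 and 0.346 without replicate 1, 2 and 3). This gene name rests on the supplementary list alone, since the annotation gives the probeset no gene. Mep1a, Mme, Anpep and Ggt1 stand on that list, and Mep1a, Mme and Ggt1 on a second one. The study drew both partly from these samples, so these levels are not independent of the lists.

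Replicate 2 was the lowest sample for most members whose values differed. Of the 4 annotated members with unequal values, 3 were lowest in replicate 2, namely Mep1a, Mme and Dpep1, and Dpp4 was highest there. The Ggt1 probeset was lowest in replicate 2 as well. Among the 9734 genes with unequal values, 21.1% were lowest in replicate 2, and among the 4443 of them with a mean of 100 or more, 26.3%. Among the 4443, 17.4% were lowest in replicate 1 and 34.3% in replicate 3. Genes with 2 tied lowest values count for no replicate, whereas Mep1a, Mme and Dpep1 had 3 different values, so these shares are low as a comparison. Replicate 2 lay 0.27 below the mean of the gene for Mep1a, 0.34 below for Mme, 0.16 below for Dpep1 and 0.62 below for the Ggt1 probeset on the log2 scale. The same 3 annotated members were lowest in replicate 2 after quantile normalization and after the columns were shifted to the same median.

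**Figure D2:**
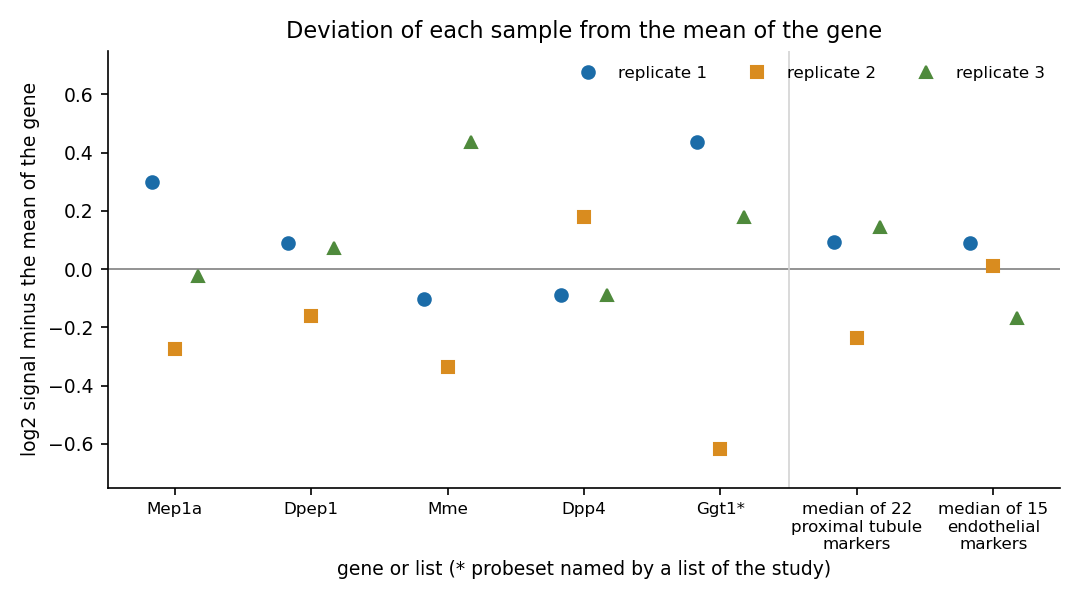
Deviation of each sample from the mean of the gene, in log2 signal, for the members with unequal values, for the Ggt1 probeset and, to the right of the grey line, as the median over 22 proximal tubule markers and 15 endothelial markers with unequal values and a mean of 100 or more (circles replicate 1, squares replicate 2, triangles replicate 3). Replicate 2 is the lowest for Mep1a, Dpep1, Mme, Ggt1 and the proximal tubule median, whereas it is the highest for Dpp4 and close to 0 for the endothelial median.

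Proximal tubule markers moved with these samples too. Of the 23 with unequal values, 18 were lowest in replicate 2, and over the 22 of these whose mean reached 100, the deviations had medians of 0.09, -0.24 and 0.14 in replicates 1, 2 and 3. For 15 endothelial markers the medians were 0.09, 0.01 and -0.17, so that replicate 3 and not replicate 2 was the lowest. Distal markers were also low in replicate 2. Of 10 distal tubule and collecting duct markers with unequal values, 7 were lowest there. The thick ascending limb markers had summed signals of 3360, 2150 and 2750, sums that Umod raised (2050, 1290 and 1930). Of 4 thick ascending limb markers with unequal values, 2 were lowest in replicate 2 and 2 in replicate 3. Smooth muscle and pericyte markers had a summed signal of 1910, 1910 and 3790, highest in replicate 3, where Mme was also highest. The part of these cell types in the spread of the members was not tested, and a correlation over 3 samples was not computed.

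Relatives of the members outside the list were set beside them by family. Of 35 measured relatives and other membrane or renal peptidases, 6 were called above 100 and 23 below, and their median signal was 56.2, close to the 59.0 of all genes. Above 100 were 17.1%, against 22.9% of all genes. In the M1 family, where Anpep belongs, 3 of 6 measured relatives were above: Enpep, Erap1 and Npepps. Enpep, glutamyl aminopeptidase, which cleaves angiotensin II, had 7.57 in each sample (limma adjusted p = 1.68e-06). Erap1, which trims peptides in the endoplasmic reticulum, had 8.02 in each sample. The values of Enpep and Erap1 were equal, and both stayed above 100 when a limma fit gave equal-valued probesets a spread. The cytosolic Npepps had 8.26, 8.08 and 8.08.

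In the other families the relative above the limit was always a single gene or none. Among the astacins it was Bmp1, the procollagen C-proteinase, with 6.96 in each sample. The call of Bmp1 was lost when a limma fit gave equal-valued probesets a spread. In the neprilysin family it was Ece1, the endothelin-converting enzyme, with 8.99, 8.94 and 8.99 (limma adjusted p = 0.000102). Ece1 processes endothelin in endothelial cells. In the family of Dpp4 it was the cytosolic Dpp8, with 8.84, 9.24 and 8.37, while Fap, Dpp6, Dpp9 and Dpp10 were below and Prep was called neither. Of the other gamma-glutamyltransferases Ggt5, Ggt6 and Ggt7 were below, as were the other membrane dipeptidases Dpep2 and Dpep3. Of the X-prolyl aminopeptidases the cytosolic Xpnpep1 was not called, at 7.64, 7.05 and 7.64, and Xpnpep3 was below. Ace, angiotensin-converting enzyme, which is found on endothelium and on the brush border, had 6.22 in each sample. It was called below 100 (limma adjusted p = 4.62e-08), a p that rests on a spread of 0 between the samples.

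**Figure D3:**
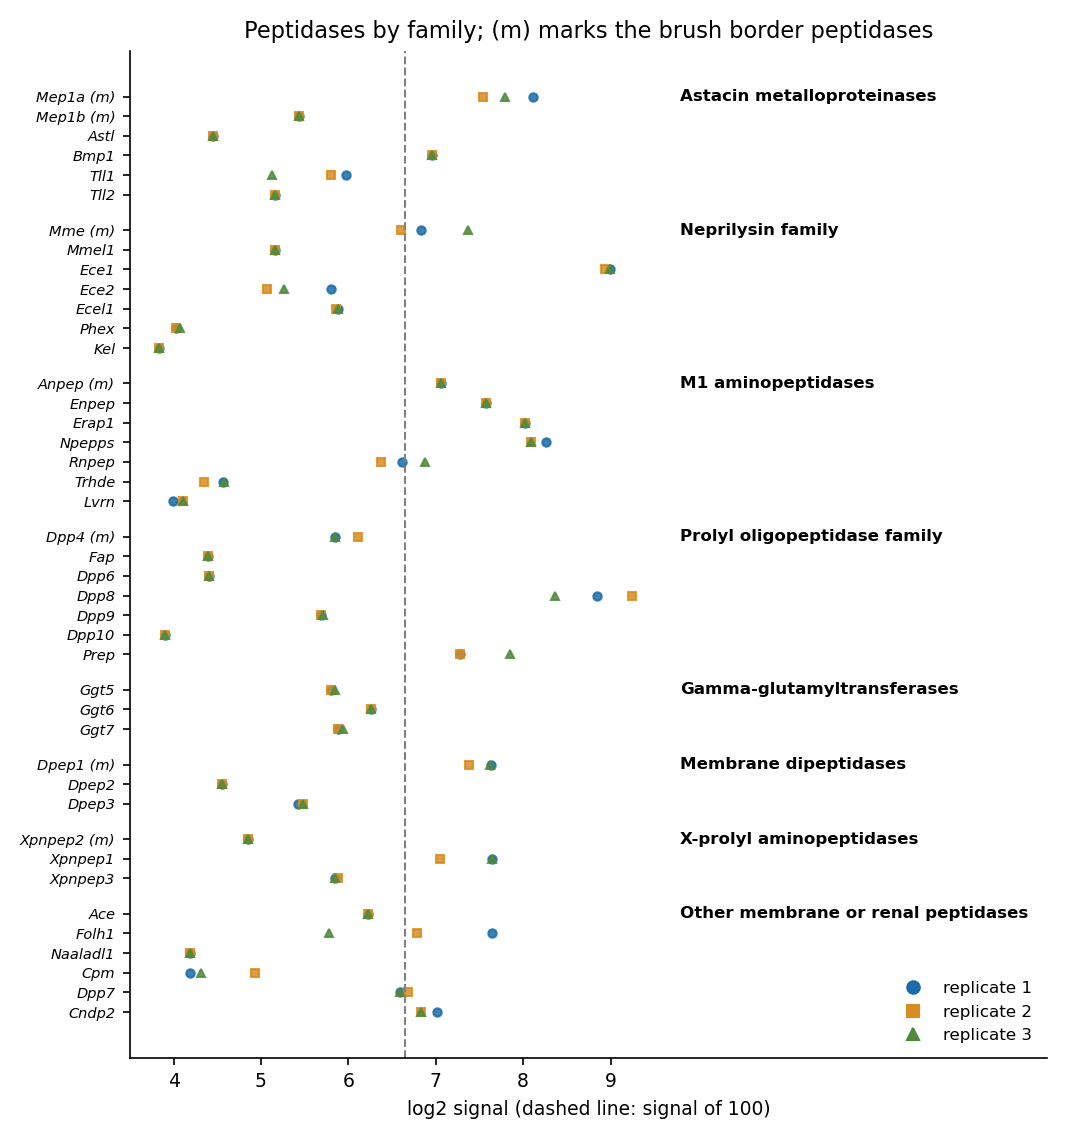
Log2 signal in the 3 samples for the brush border peptidases (marked m) and their measured relatives, grouped by enzyme family, with the signal of 100 as a dashed line (circles replicate 1, squares replicate 2, triangles replicate 3). Of the 35 relatives 6 were called above the line and 23 below, and levels of different probesets are not to be ranked against each other.

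Genes that work beside the peptidases were counted on the same limit. Of 16 genes for the structure of the brush border, 6 were above 100, 8 below and 2 (Cdhr5 and Anks4b) neither. Vil1, villin, which bundles microvillar actin, was below (6.37, 6.30 and 6.30), whereas Ezr, which ties actin to the membrane, was above (7.66, 7.53 and 7.66). The scaffolds Pdzk1 (9.37, 8.96 and 8.96) and Nherf1 (8.37, 8.19 and 8.37) were above as well.

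Of 16 carriers and partners for peptide and amino acid uptake, 6 were above, 6 below and 4 neither. That is 37.5% on each side, against 22.9% above and 65.0% below over all genes. The list is not limited to carriers of the brush border membrane, so its counts do not describe that membrane alone. Above were Slc6a20b, Cltrn, Slc1a1, Slc3a1, Slc7a7 and Slc3a2, and below were Slc15a1, Slc15a2, Slc6a20a, Slc7a9, Slc36a1 and Slc43a2. The peptide carriers Slc15a1 (4.59 in each sample) and Slc15a2 (6.47 in each sample) were both below 100. Their values were equal in the 3 samples, as were those of Slc6a20a, Slc6a20b and Slc7a9, so these calls rest on a spread of 0. Slc15a2 and Slc7a9 lay close under the limit, at signals of 88.6 and 88.5. The neutral amino acid carriers Slc6a19 (7.23, 7.23 and 7.81) and Slc6a18 (6.52, 6.02 and 6.02) were called neither, with Slc7a8 and Slc7a13. Slc7a13 had 9.75, 9.34 and 8.0, lowest in replicate 3.

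Of 10 genes for glutathione synthesis and breakdown, the pathway of Ggt1 and Dpep1, 5 were above 100 (Gclm, Gss, Ggct, Lap3 and Gpx3), Oplah and Chac1 were below, and Gclc, Chac2 and Gsr were neither. Gclc, the catalytic subunit of the first enzyme of synthesis, had 8.80, 8.02 and 7.0, and Gclm, its modifier subunit, had 7.70, 7.68 and 7.68. The 3 samples were far apart for Gclc and close for Gclm. Oplah and Chac1 had equal values in the 3 samples, so their calls rest on a spread of 0. Gss, glutathione synthetase, had 7.19, 6.95 and 7.0, and Ggct, which releases amino acids from gamma-glutamyl dipeptides, had 7.66, 7.82 and 7.51.

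Of 8 measured factors listed with the proximal tubule, 3 were above (Ppargc1a, Maf and Emx1) and 4 below (Hnf4g, Cdx2, Ppara and Foxc1). Cdx2 is a factor of intestinal epithelium. Maf (7.04), Emx1 (6.80) and Cdx2 (5.65) had equal values in the 3 samples, so their calls rest on a spread of 0. Hnf4a, a regulator of proximal tubule genes, was not called, at 7.62, 7.19 and 7.23 (limma adjusted p = 0.0567). It was above 100 in every sample.

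**Figure D4:**
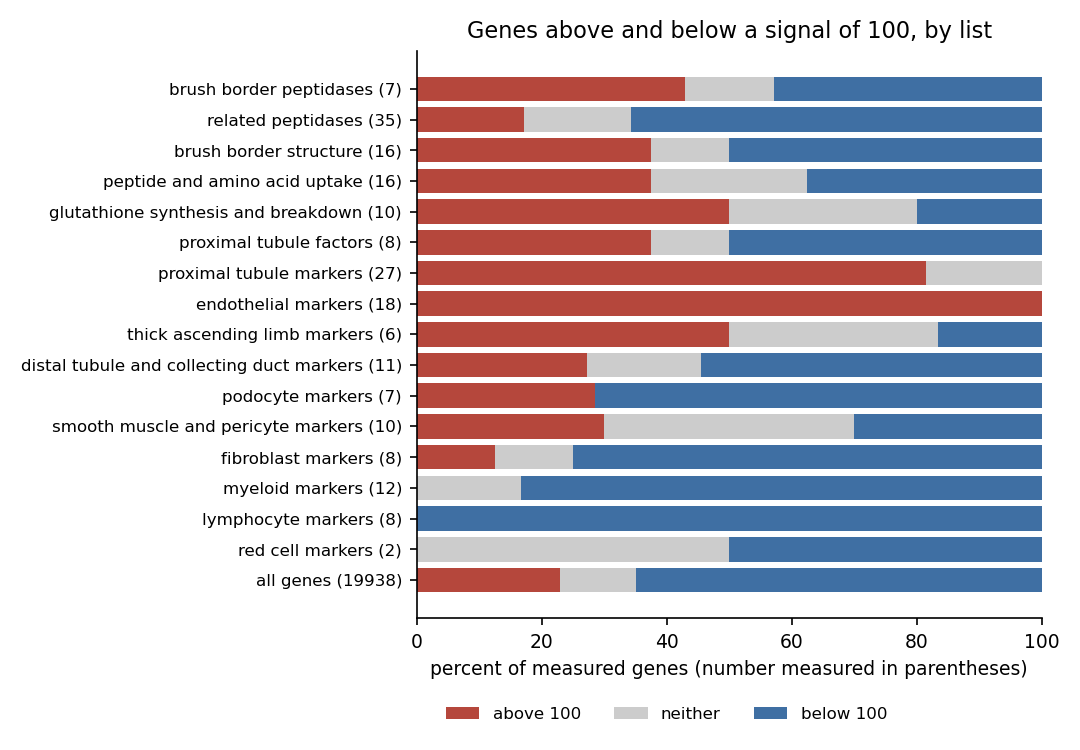
Percent of the measured genes of each list called above a signal of 100, below it or neither, with the number measured in parentheses and all genes in the lowest row. The brush border peptidases stand at 42.9% above and 42.9% below, all genes at 22.9% and 65.0%, the proximal tubule markers at 81.5% and 0%, and the endothelial markers at 100% and 0%.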

How the data were processed

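GFP-positive cortical cells of 3 kidneys were measured on Affymetrix Mouse Gene 1.0 ST arrays. The authors deposited log2 signals, normalized between arrays and summarised per probeset. The methods name RMA in GeneSpring and the submitters' processing notes Affymetrix Expression Console, whose version is not given in the sources used here, nor is a genome build.

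Of 35557 probesets, 21789 had 1 gene in the platform annotation, 1621 several and 12147 none listed. A gene was taken at its probeset with the highest mean. Each log2 value minus log2 of 100 was fitted with limma 3.58.1 (R 4.3.3; intercept only, variance trend), one-sided in each direction, and p was adjusted by Benjamini-Hochberg over all probesets. The 3 arrays left 2 residual and 0.297 prior degrees of freedom, and their number limits the precision. The p-values measure only the spread between these samples, which the paper calls independent biological samples and the labels give as 1 kidney each. The script was tested on simulated data whose spread came from probesets with unequal values, so that test did not cover equal values. Summaries used pandas 2.3.3 and numpy 2.4.6 in Python 3.11.15.

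The members and lists were chosen with earlier results of these data known. The rule for named genes took every member, relatives of the same family above 100, Enpep and Ace, up to 4 genes per other list in written order, and all genes behind a count of 5 or fewer. Not every gene of the cell type lists is named. Slc7a13 and the markers Lrp2, Slc34a1, Slc27a2, Kap, Keg1, Umod, Calb1 and Rgs5 were given values after these were seen. The uptake genes above and below 100 were named beyond the rule. Nherf1 was matched by its older symbol. The alternatives were limits of 50 and 200, quantile normalization, columns shifted to 1 median, no variance trend, a spread for equal values, a filter at a mean of 20, other probeset choices, no test, and each replicate left out. The Ggt1 probeset was added after seeing the data. Some items of these lists are not reported here.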

Additional observations from a re-analysis of the deposited data

How the results depend on the processing

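At a limit of 200, 0 members were above and 5 below, against 3 and 3 at 100. The share of all genes called was counted only at the limit of 100 with all 3 samples and the deposited values. Shifts of the counts under the alternatives therefore cannot be read as particular to the members. Leaving out a replicate gave 1 to 2 members above, with Anpep alone without replicate 1 or without replicate 3, and 2 to 3 below. Anpep, Mep1b and Xpnpep2 had 3 equal values, so leaving out a sample could change neither their mean nor their spread. Of the other peptidases 18 were above a limit of 50 and 3 above 200, against 6 at 100. For single members, the difference between mean and limit turned positive for Dpp4 at a limit of 50 (0.29, adjusted p in limma 0.0697), and negative at a limit of 200 for Mme (-0.71), Anpep (-0.58) and Dpep1 (-0.10). Mme was above a limit of 50 (limma adjusted p = 0.0233). Of 77 values of single members under the alternatives, 63 kept direction and side of the threshold, 9 lost the call, 1 gained it and 4 turned. The 63 include Anpep, Mep1b and Xpnpep2 without each replicate, where mean and spread could not change. Quantile normalization, the common median, no variance trend, the filter on low means and a fit on probesets of 1 gene changed no call of a member. Each member has 1 probeset, so taking the lowest probeset could change nothing, and neither it nor the count without a test is among the 77. With the Ggt1 probeset, an alternative chosen after seeing the data, 4 were above and 3 below; at a limit of 200 it lost its call (limma adjusted p = 0.318). No paired analysis was possible because the samples form 1 group. An exact sign permutation of 3 samples cannot give a one-sided p under 0.125. Dim probesets, near the median signal of all genes, and values repeated between samples or probesets give the least firm levels.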

Other observations

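Of the related peptidases, Folh1, glutamate carboxypeptidase of the proximal tubule membrane, had the widest spread of values, with log2 signals of 7.65, 6.79 and 5.78 in replicates 1, 2 and 3 (SD 0.93). Its mean was called neither above nor below a signal of 100. Gclc had a like spread (8.80, 8.02 and 7.0, SD 0.90), and Slc7a13, a carrier of the late proximal tubule, had 9.75, 9.34 and 8.0 (SD 0.91). For these 3 genes, which were picked after their values were seen, replicate 3 was the lowest and replicate 2 lay between, unlike Mep1a, Mme and Dpep1, whose lowest value was in replicate 2. Lap3, a leucine aminopeptidase, had 9.41, 8.50 and 8.30, with replicate 1 the highest. The difference between the 2 sets of genes was not tested.

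In replicate 3, 3 smooth muscle genes were higher than in the other samples: Acta2 had 8.43, 7.97 and 9.50, Myh11 had 7.79, 8.14 and 9.44, and Tagln had 6.41, 6.78 and 8.08 in replicates 1, 2 and 3. Mme was the member highest in replicate 3, and whether the 2 are linked was not tested.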
